A study of Homo sapiens with 16 samples.

Results

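The change in gene expression between 12 h and 24 h of cinobufagin treatment was compared between cultures of 2 established human cell lines, labelled HepG2 and Huh-7 and described as liver cancer lines. The comparison rested on the 12 treated libraries of the 16 in the series, chosen because they are the libraries taken at 12 h or 24 h, with 3 libraries in each of 4 groups. The groups were HepG2 at 12 h, HepG2 at 24 h, Huh-7 at 12 h and Huh-7 at 24 h, and every one of the 12 had received cinobufagin at 5 µmol/L. The other libraries were untreated (3 of Huh-7 and 1 of HepG2) and entered none of the tests. Polyadenylated RNA was sequenced on an Illumina instrument. No untreated culture at 12 h or 24 h was used, so time with cinobufagin and time in culture cannot be told apart.

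Cinobufagin is a cardiotonic steroid from toad venom that binds the sodium pump, the Na,K-ATPase, and blocks it, so that cells gain sodium and lose potassium. Stressed cells slow general translation through the integrated stress response, in which the transcription factor ATF4 raises genes for amino acid supply and stress signalling, and they raise chaperones through heat shock factor 1. Both programmes rise and fade over hours, and the design asks whether they and the rest of the transcriptome moved alike in both lines between 12 h and 24 h.

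The labelled liver origin was checked in the 12 treated libraries against 18 defining hepatocyte markers, which were largely absent from both treated lines. The markers were not examined in the untreated libraries, so their level without cinobufagin is not given. In each group 11 or 12 of them were listed at 0 in every library, AFP, APOB, SERPINA1 and TTR among them, and RBP4 in Huh-7 was the 1 that reached 10 CPM (counts scaled to library size). Hepatocyte nuclear factor HNF4A averaged at most 0.556 CPM in any group. The lines are therefore named as their labels name them, and no result rests on their being liver cells. The summed level of 19 markers of other cells, chiefly KRT7 and VIM, was 1338 to 1370 CPM in HepG2 at 12 h and 981.9 to 1044 at 24 h, against 573.4 to 598.1 and 569.2 to 585.8 CPM in Huh-7, and its part in the results was not tested.

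The line difference of a gene was its log2 change from 12 h to 24 h in HepG2 minus that in Huh-7, so a positive value means that HepG2 moved up relative to Huh-7. A gene was called when the adjusted p was under 0.05 and the absolute log2 value at least 1, that is, a 2-fold difference. Of 12600 genes tested, 1611 (12.8%) had a called line difference, 930 higher (7.38%) and 681 lower (5.40%), by the quasi-likelihood test of edgeR with Benjamini-Hochberg adjustment. Many calls were at low levels. Of the 930 higher genes, 134 (14.4%) averaged under 1 CPM in one line and 456 (49.0%) under 10 CPM over the 12 libraries. Of the 681 lower genes, these were 80 (11.7%) and 278 (40.8%). Within HepG2, 1446 genes (11.5%) changed, 811 up (6.44%) and 635 down (5.04%). Within Huh-7, 1652 genes (13.1%) changed, 832 up (6.60%) and 820 down (6.51%). With plain library sizes in place of TMM scaling the share of HepG2 calls that were higher was 68.2% in place of 56.1%, and the median HepG2 change of all genes was 0.11 in place of −0.01. HepG2 changes are read relative to the median on the TMM scale.

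The 12 libraries held 9543048 to 10457853 expected counts over 14008 to 14129 listed genes, so 3 counts equalled 0.287 to 0.314 CPM. Libraries of one group correlated at 0.9923 to 0.9935 (log2 CPM), and no pair agreed within sampling noise. Whether the replicates were separate cultures is not given, so a p-value here reflects library-to-library spread, possibly technical. In bulk RNA, fewer cells of a type and less RNA per cell cannot be told apart. The median line difference was −0.10 in the shortest, 0.00 in the middle and 0.05 in the longest of 3 equal classes of gene length, and the part of length was not tested.

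Across all 12600 genes, the changes in the 2 lines had a Pearson correlation of 0.36 and a Spearman correlation of 0.368, given as a description over genes, which are not independent replicates. The lines shared no library. Both lines changed in the same direction in 429 genes (3.40%) and in opposite directions in 60 (0.476%). Of the 930 genes with a higher line difference, 284 rose in HepG2 with no call in Huh-7, 281 fell in Huh-7 with no call in HepG2, and 38 rose in HepG2 and fell in Huh-7. A further 307 were called in neither line alone, and 20 changed in the same direction in both. Of the 681 genes with a lower line difference, 253 rose in Huh-7, 147 fell in HepG2, 22 did both, 242 were called in neither line alone and 17 changed in the same direction in both.

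**Figure D1:**
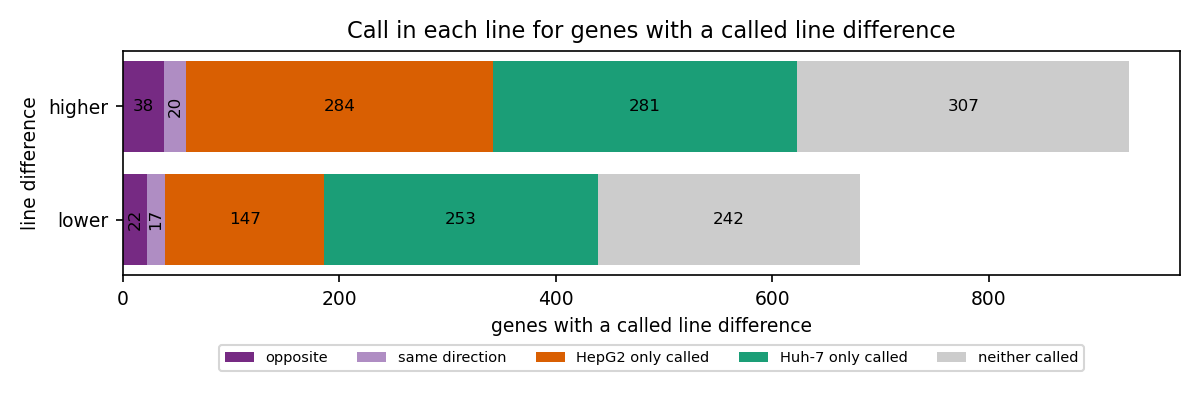
Number of genes (horizontal axis) with a higher or lower called line difference, divided by the call in each line alone. Of the 930 higher and 681 lower genes, 38 and 22 moved in opposite directions with both lines called.

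**Figure D2:**
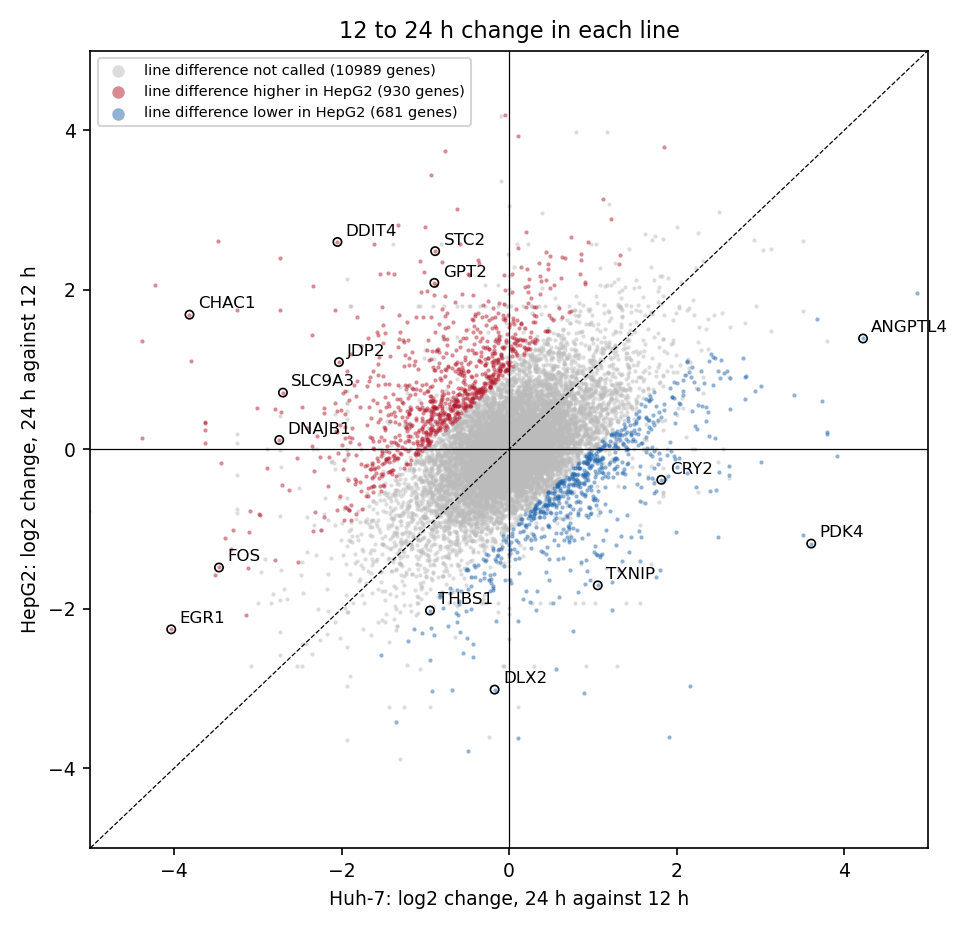
Log2 change from 12 h to 24 h in Huh-7 (horizontal axis) and HepG2 (vertical axis), 1 point for each of 12600 genes, coloured by the call of the line difference, with the dashed line at equal change. CHAC1 and DDIT4 lie far above that line, and PDK4 and TXNIP lie below it.

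For some genes the order of the lines was reversed between the times. Among the 7532 genes with at least 10 CPM in each line, 690 (9.16%) had a called line difference, 362 higher (4.81%) and 328 lower (4.35%). In 147 of the 362 (40.6%), every HepG2 library lay below every Huh-7 library at 12 h and above every Huh-7 library at 24 h, against 4.33% of the 7532 genes. In 131 of the 328 (39.9%), the order turned the other way, against 6.33%. The line difference and the order come from the same values, so this is a description of the called genes.

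Genes of the integrated stress response gave the highest median line difference of the lists examined. Of 25 tested members, 13 had a higher and 1 a lower line difference, against 7.38% and 5.40% of all tested genes, and the median over the list was 1.02, against −0.02 over all tested genes. In HepG2 alone 9 members rose and 2 fell, with a median of 0.46. In Huh-7 alone 1 rose and 6 fell, with a median of −0.53. The members called in opposite directions in the 2 lines were CHAC1, DDIT4, SESN2, TRIB3 and TXNIP.

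CHAC1, a glutathione-degrading enzyme raised by ATF4, had the highest line difference among genes at 10 CPM or more in each line. It stood at 10.8, 10.6 and 10.0 CPM in the 3 HepG2 libraries at 12 h and at 31.9, 33.5 and 36.1 CPM at 24 h. In Huh-7 it stood at 136, 129.5 and 124 CPM at 12 h and at 9.68, 9.14 and 8.77 CPM at 24 h. The groups did not overlap in either line, and Huh-7, the higher line at 12 h, was the lower line at 24 h. CHAC1 rose 3.22-fold in HepG2 and fell 14.1-fold in Huh-7, a log2 line difference of 5.51 (SE 0.12, adjusted p = 3.24e-27 by the quasi-likelihood test of edgeR with Benjamini-Hochberg adjustment).

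DDIT4 encodes an inhibitor of mTOR complex 1 that rises under energy, hypoxic and amino acid stress. Its level was 50.4, 51.5 and 49.8 CPM in HepG2 at 12 h and 288, 316 and 317 CPM at 24 h. In Huh-7 it was 214, 214 and 201 CPM at 12 h and 51.9, 47.7 and 52.2 CPM at 24 h. Again no group overlapped the other time of its line, and the order of the lines turned around. The log2 line difference was 4.65 (SE 0.072, adjusted p = 1.04e-30 by the quasi-likelihood test of edgeR with Benjamini-Hochberg adjustment), from 2.60 in HepG2 and −2.05 in Huh-7.

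SESN2, a leucine sensor that restrains mTOR complex 1, and TRIB3, a pseudokinase that dampens ATF4, moved likewise. SESN2 rose by 1.07 on the log2 scale in HepG2 and had a log2 change of −1.56 in Huh-7, with a line difference of 2.63 (SE 0.086). TRIB3 rose by 1.29 in HepG2 and had a log2 change of −1.33 in Huh-7, with a line difference of 2.62 (SE 0.096). For both genes HepG2 lay below Huh-7 in every library at 12 h and above it in every library at 24 h.

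STC2, a secreted glycoprotein induced by ER stress, showed a rise in HepG2 with a much higher level in Huh-7 at both times. HepG2 libraries held 13.1, 13.3 and 11.1 CPM at 12 h and 71.3, 71.2 and 67.3 CPM at 24 h. Huh-7 libraries held 744, 771 and 754 CPM and then 402, 397 and 432 CPM. Groups did not overlap, and the change was called in HepG2 (2.49) but not in Huh-7 (−0.88), with a line difference of 3.37 (SE 0.083). CEBPG, a dimer partner of ATF4, and ASNS, asparagine synthetase, also rose in HepG2, with line differences of 2.07 and 1.81. CEBPG and ASNS lay outside the rule that chose the named genes and were picked after their values were seen.

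ATF4 itself had no called line difference (−0.13), with log2 changes of −0.76 in HepG2 and −0.64 in Huh-7. DDIT3, the pro-apoptotic factor CHOP, had a line difference of 1.49 and fell in Huh-7 (−1.03) with no call in HepG2 (0.46). TXNIP, a thioredoxin-binding protein that limits glucose uptake, was the member with a lower line difference. Its level was 764, 797 and 749 CPM in HepG2 at 12 h and 243, 229 and 235 CPM at 24 h. In Huh-7 it was 176, 178 and 174 CPM and then 370.1, 367 and 364 CPM. No libraries overlapped between times, and the log2 line difference was −2.77 (SE 0.053, adjusted p = 2.72e-28 by the quasi-likelihood test of edgeR with Benjamini-Hochberg adjustment).

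**Figure D3:**
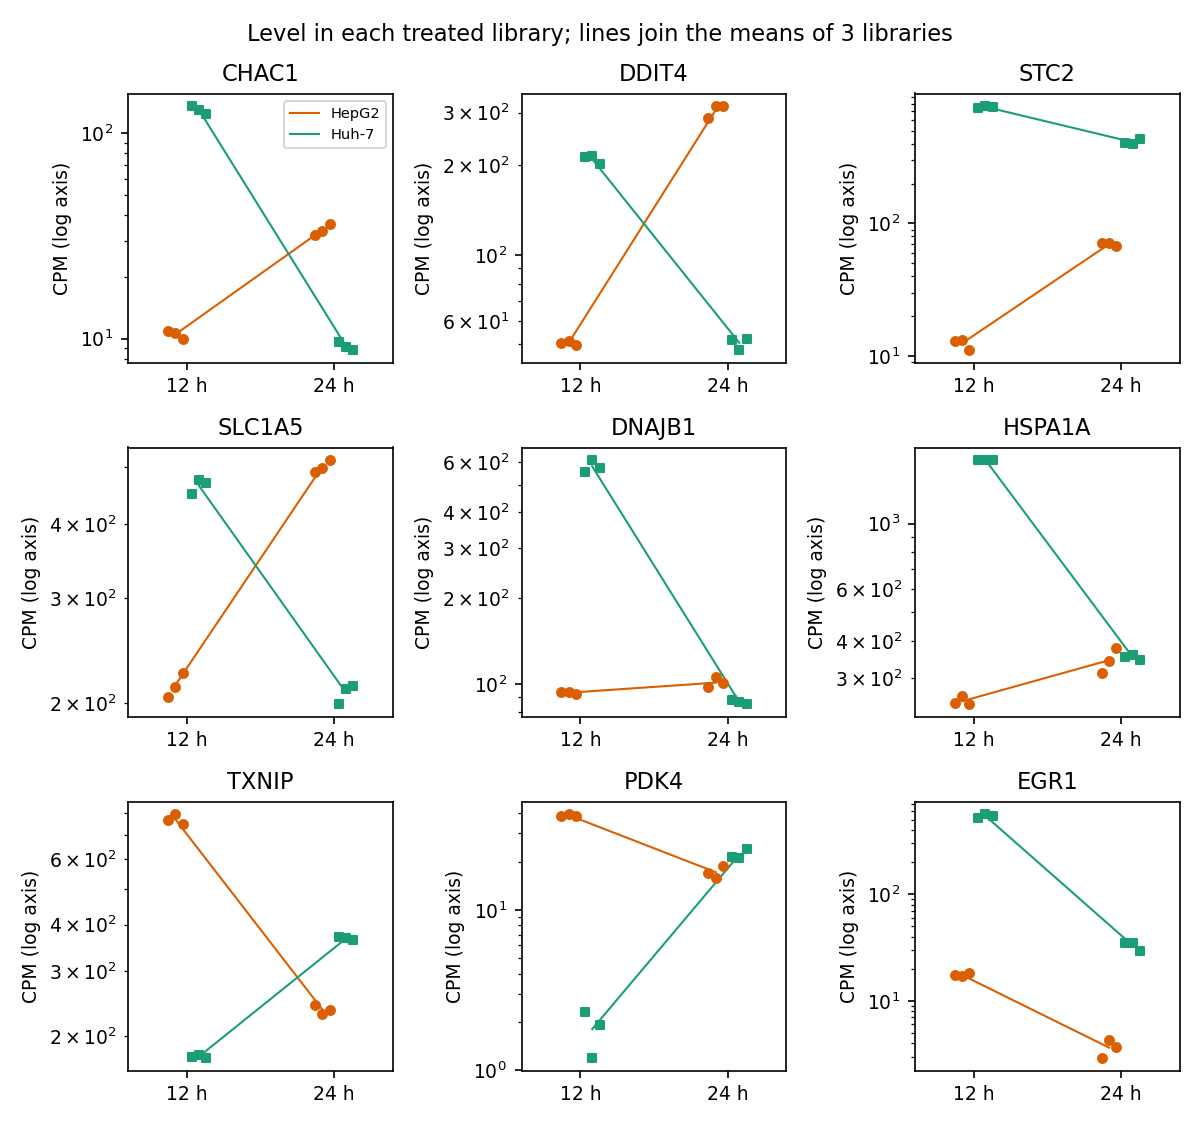
Level in CPM (log axis) of 9 genes in each of the 12 treated libraries at 12 h and 24 h, with lines joining the mean of 3 libraries in HepG2 (circles) and Huh-7 (squares). CHAC1, DDIT4, SLC1A5 and TXNIP cross between the lines, and DNAJB1 and HSPA1A fall in Huh-7 to near the level of HepG2.

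Enzymes and carriers of amino acid supply moved in the same way in part. GPT2, a mitochondrial alanine transaminase, rose in HepG2 (2.09) and had a log2 change of −0.89 in Huh-7, a line difference of 2.98 (SE 0.093). A list of serine, glycine and one-carbon enzymes also counted GPT2. Of its 17 tested members, 3 had a called line difference (17.6%, against 12.8% of all tested genes). All were higher (7.38% over all tested genes): GPT2, PSPH (2.25) and PSAT1 (1.63). PSPH and PSAT1 are the last and the middle enzyme of serine synthesis. By a list chosen after the values were seen, 4 of 23 tested amino acid carriers were higher and 2 lower (26.1% called, against 12.8%). The higher carriers SLC7A5 and SLC7A11 were also counted among the higher members of the integrated stress response list. SLC1A5, a glutamine carrier, stood at 205, 213 and 225 CPM in HepG2 at 12 h and 491, 498 and 514 CPM at 24 h, and in Huh-7 at 449.7, 476 and 469 CPM and then 199, 211 and 214 CPM. The lines crossed without overlap, with a line difference of 2.39 (SE 0.057). Its neighbour by family, the glutamate carrier SLC1A3, had the opposite sign (−1.31) and rose in Huh-7 (1.79). Aminoacyl-tRNA synthetases, which are also ATF4 targets in part, stood apart from this pattern. Of 20 tested, 1 was higher and 1 lower (10.0% called, against 12.8% of all tested genes), with a median of 0.07.

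Heat shock genes gave the other large set, with the calls mostly in Huh-7. Of 24 tested members, 10 had a called line difference, all higher, against 12.8% called and 7.38% higher over all tested genes. The median over the list was 0.76. The 10 included HSPA6, which held at most 3 counts in any HepG2 library, so its HepG2 change could not be measured. In Huh-7 alone 9 members were called, all lower (median −0.78). In HepG2 alone 1 was called, HSPB1, which fell and is named after its value was seen (median 0.04). Promoter stretches of 3 stress-inducible HSP70 genes, and of CHAC1 for the stress response above, are shown because these genes fell in Huh-7 and hold a match to the motif of their programme. They come from RefSeq with build GRCh38.p14, all on the plus strand: HSPA6 at chr1:161524441-161524500, HSPA1A at chr6:31815416-31815475, HSPA1B at chr6:31827612-31827671 and CHAC1 at chr15:40953237-40953296. Capitals mark the matches to TTCNNGA, a core of the heat shock element, in the HSP70 genes (2 overlapping matches, 1 on each strand, in HSPA6), and the match to TGATGCA, an ATF4 core, on the minus strand of CHAC1.
HSPA6: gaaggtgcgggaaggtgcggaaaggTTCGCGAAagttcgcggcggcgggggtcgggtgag
HSPA1A: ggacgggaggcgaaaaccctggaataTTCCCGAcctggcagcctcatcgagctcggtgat
HSPA1B: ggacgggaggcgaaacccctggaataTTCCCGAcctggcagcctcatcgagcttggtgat
CHAC1: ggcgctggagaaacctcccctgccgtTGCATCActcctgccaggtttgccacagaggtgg

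Searched on both strands of the 250 bases before each start site, TTCNNGA was found in 7 of the 10 heat shock genes with a higher line difference (70.0%) and in 11 of the 22 tested heat shock genes with a promoter in the table. HSPA1A and HSPA1B, both among the 7, are near-identical copies. DNAJB1, HSP90AA1 and HSPH1 held none in this window. TTCNNGA was found in 25.3% of the 10284 tested genes with a promoter in the table. TGATGCA was found in 1 of the 12 stress response genes with a higher line difference and a promoter, CHAC1, against 1.07% of the same 10284 genes. Among genes with a higher line difference in all, TTCNNGA was in 24.1% and TGATGCA in 1.22%. Other words were searched in the same 10 heat shock and 12 stress response genes. CCAAT was in 60.0% and 58.3%, against 35.3% of the 10284 genes. TGANTCA was in 10.0% and 8.33%, against 3.91%, and TGACGTC in 0.0% of both, against 5.15%. TTCNNGA was in 16.7% of the 12 stress response genes, and TGATGCA in 0.0% of the 10 heat shock genes. Against the 10284 genes, TTCNNGA was thus more frequent in the heat shock set alone, and CCAAT in both sets. These shares were not tested. The words are short, TTCNNGA and CCAAT are frequent, and a match describes letters in the window only.

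DNAJB1, a co-chaperone of HSP70, held 554, 611 and 572 CPM in Huh-7 at 12 h and 88, 86.3 and 84.7 CPM at 24 h. In HepG2 it held 93.8, 93.4 and 92.1 CPM and then 97.2, 105 and 100.3 CPM. The Huh-7 groups lay far apart, and Huh-7, far above HepG2 at 12 h, lay slightly below it at 24 h. The line difference was 2.86 (SE 0.066, adjusted p = 3.53e-26 by the quasi-likelihood test of edgeR with Benjamini-Hochberg adjustment). HSPA1A, the main stress-inducible HSP70, held 1641, 1644 and 1637 CPM in Huh-7 at 12 h and 354, 358 and 346 CPM at 24 h, against 246, 260.4 and 244 CPM and 312, 343 and 379 CPM in HepG2. The times did not overlap in either line, and at 24 h the lines overlapped. The line difference was 2.68, and HSPA1B gave 2.53. HSPA1A and HSPA1B are near-identical copies, so the split of reads between them is uncertain.

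HSPA6, an HSP70 made almost only under stress, was listed at 89.1, 94 and 91.4 CPM in Huh-7 at 12 h and 5.52, 4.96 and 4.14 CPM at 24 h. In HepG2 it did not exceed 3 counts in any library, so it fell 18.7-fold in Huh-7 while its HepG2 change could not be measured. The constitutive HSP70 HSPA8, which also folds new proteins, had a line difference of 2.01, from −1.88 in Huh-7 and 0.14 in HepG2. HSPH1 and HSP90AA1 fell in Huh-7 as well (−1.26 and −1.42), and both were picked after their values were seen, as was HSPA8. The list of endoplasmic reticulum chaperones, which also held the transcription factor XBP1, did not follow. Of 22 tested, 1 had a called line difference (4.55%, against 12.8% of all tested genes), and it was XBP1 (1.75). HSPA5, the main ER HSP70, had 0.24 and was not called.

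**Figure D4:**
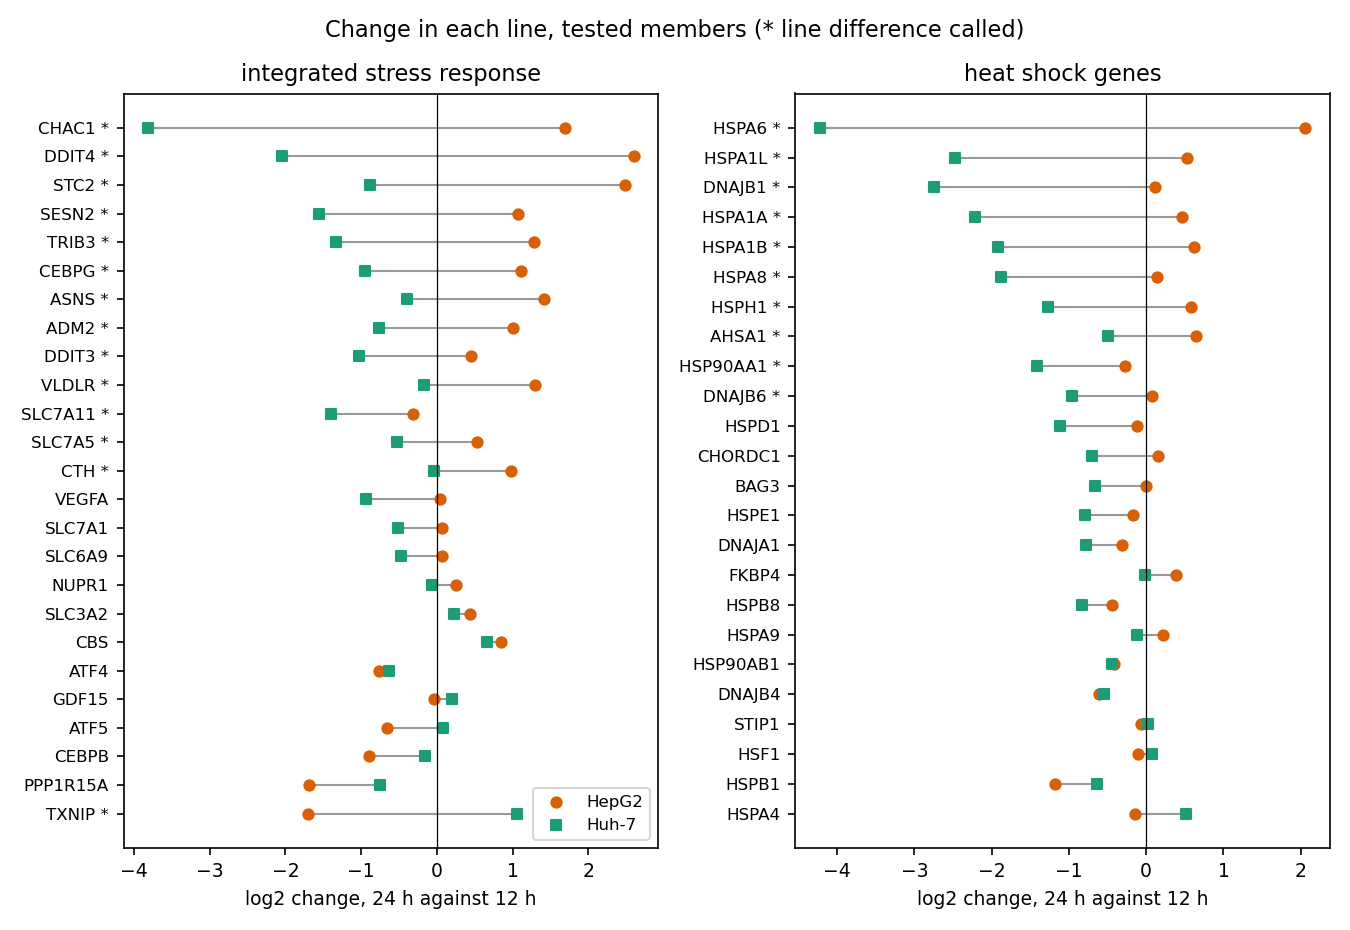
Log2 change from 12 h to 24 h (horizontal axis) of each tested integrated stress response gene (left) and heat shock gene (right) in HepG2 (circles) and Huh-7 (squares), ordered by line difference, with an asterisk where the line difference was called. HepG2 lies to the right of Huh-7 for CHAC1 down to CTH, and TXNIP is reversed.

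Several immediate early genes, which growth and stress signals induce first, fell in both lines, and some fell further in Huh-7. Of 28 tested, 9 had a higher and 1 a lower line difference (35.7% called against 12.8% of all tested genes, median 0.36), 8 fell in HepG2 and 12 fell in Huh-7. EGR1, a zinc finger factor, was at 517, 568 and 539 CPM in Huh-7 at 12 h and 34.8, 34.7 and 29.5 CPM at 24 h, and in HepG2 at 17.4, 17 and 18 CPM and then 2.88, 4.33 and 3.70 CPM. It fell in both lines without overlap, with log2 changes of −4.04 in Huh-7 and −2.26 in HepG2 and a line difference of 1.78 (SE 0.18). FOS, a subunit of AP-1, gave 1.98, and the orphan nuclear receptor NR4A3 gave 1.94. ATF3, a stress-induced repressor, fell in Huh-7 alone by call (−1.64, against 0.14 in HepG2), with a line difference of 1.78. IER3, an early gene with roles in cell survival, was the 1 lower member; it was picked after its values were seen and fell in HepG2 (−1.57). MYC had no called line difference (−0.53).

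Genes of fasting fuel use and lipid storage make up a list chosen after the values were seen, so its counts describe that choice. Of 28 tested members, 7 were lower and 1 higher (28.6% called, against 12.8% of all tested genes), with a median line difference of −0.31. The lower members included TXNIP, which the integrated stress response list also counted. In Huh-7 alone 8 rose, against 6.60% of all tested genes. PDK4, a kinase that shuts off pyruvate entry into mitochondria in fasting, gave the lowest line difference among genes at 10 CPM or more in each line. It held 38.5, 39.8 and 38.8 CPM in HepG2 at 12 h and 17, 15.8 and 18.7 CPM at 24 h, and 2.31, 1.18 and 1.91 CPM and then 21.5, 21 and 23.9 CPM in Huh-7. Groups did not overlap within either line, and the order of the lines turned. The line difference was −4.79 (SE 0.18, adjusted p = 1.21e-20 by the quasi-likelihood test of edgeR with Benjamini-Hochberg adjustment). ANGPTL4, an inhibitor of lipoprotein lipase, rose in both lines, from 1.78, 2.58 and 1.80 CPM to 37.1, 40.7 and 38.2 CPM in Huh-7 and from under 1 CPM to under 2 CPM in HepG2. PLIN2, a lipid droplet coat protein, rose in Huh-7 (1.55) and did not exceed 7 counts in any HepG2 library.

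Regulators of the circadian clock were a second list chosen after the values were seen. Of 19 tested members, 4 were lower and 2 higher (31.6% called, against 12.8% of all tested genes). The list's median line difference was 0.37 and 14 of the 19 estimates were positive, so the lower calls below do not describe the list as a whole. NR1D1 and CRY2, both repressors in the clock's feedback loops, rose in Huh-7 by 1.56 and 1.82 on the log2 scale. Their HepG2 changes were −0.65 and −0.38, neither called, and their line differences were −2.21 (SE 0.076) and −2.20 (SE 0.11). TEF, a clock output factor, gave −1.97 and PER1, a further repressor, −1.43. On the higher side, CLOCK, the activator at the centre of the loop, gave 1.34, and the repressor BHLHE40 gave 1.20, both picked after their values were seen.

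Lysosome and autophagy genes were lower in 4 of 30 tested members and higher in 1, ATG13 (named after its value was seen), 16.7% called against 12.8% of all tested genes, with a median of −0.54. MCOLN1, a lysosomal calcium channel, and TFEB, the transcription factor that raises lysosomal genes, rose in Huh-7 (1.77 and 1.97), with line differences of −1.41 and −1.12. Their HepG2 changes were smaller and in the same direction (0.37 and 0.84), without overlap of the libraries but under the 2-fold threshold. Subunits of the lysosomal proton pump ATP6V1A and ATP6V0D1 had line differences of −1.20 and −1.14 with no call in either line alone. MTOR and EIF4E, which drive growth and translation, had no called line difference (0.36 and 0.36).

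Splicing factors of the SR and hnRNP families had 4 called members of 32 tested, or 12.5%, a share near the 12.8% of all tested genes. All 4 were higher, against 7.38% of all tested genes. They were SRSF3 (1.70), SRSF7 (1.56), SRSF5 (1.55) and HNRNPDL (1.37), and the list's median was 0.12. Among hypoxia and glycolysis genes, 6 of 31 (19.4%, against 12.8% of all tested genes) had a called line difference. All 6 were higher, against 7.38% of all tested genes, including PDK1 (1.56), EGLN1 (1.43), HK2 (1.11) and PFKP (1.16). The list's median was 0.39. PDK1 is a kinase that acts on the same enzyme as PDK4 and had the opposite sign. A further list chosen after the values were seen was of NOTCH pathway genes. It had 5 higher and 1 lower of 18 (33.3% called, against 12.8% of all tested genes). NRARP, a feedback inhibitor of NOTCH, rose in HepG2 (1.30) and fell in Huh-7 (−1.77), a line difference of 3.07, and the NOTCH ligand JAG2 gave 1.68.

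Some innate immune and cell cycle genes had lower line differences. OAS3 and OAS1, which sense double-stranded RNA, fell in HepG2 (−1.55 and −1.65) with no call in Huh-7 (0.12 and −0.35). Of 22 tested interferon response genes, 4 had a called line difference (18.2%, against 12.8% of all tested genes). All 4 were lower, against 5.40% of all tested genes. RELB and NFKB2, subunits of the non-canonical NF-kB pathway, had line differences of −1.79 and −1.67. Of 22 tested NF-kB targets and cytokines, 4 were lower and 1, IL6, higher (22.7% called, against 12.8% of all tested genes). Of 31 mitotic genes, 4 had a called line difference, or 12.9%, a share near the 12.8% of all tested genes called in either direction. All 4 were lower, against 5.40% of all tested genes. INCENP, a scaffold of the Aurora B complex, and CCNB2, a mitotic cyclin, rose in Huh-7 (1.46 and 1.30). AURKA had no called line difference (0.50). MCM5, a subunit of the replicative helicase, fell in HepG2 (−1.12) and gave −1.44, and E2F1 gave −1.17. They were the 2 called of 36 tested DNA replication genes (5.56%), a share under that of all tested genes (12.8%). Both were lower, against 5.40% of all tested genes. Of 24 p53 targets, 2 were higher and 1 lower, or 12.5% called, again near the share over all tested genes, and CDKN1A, the cell cycle inhibitor p21, was not called (0.33).

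Subunits of the pump and of the ribosome had no called line difference. Of 7 tested Na,K-ATPase subunits, none was called, and the beta subunits ATP1B1 and ATP1B3 gave 0.77 and −0.09. At an unadjusted p under 0.05 in the same edgeR test, 3 of the 7 subunits differed, and DESeq2 and limma-voom called none. Of 78 cytosolic ribosomal proteins none was called by edgeR, DESeq2 or limma-voom (median −0.10), with 21 higher and 37 lower at an unadjusted p under 0.05. Of 32 ribosome biogenesis genes none was called by any of the 3 tools, with 15 higher and 8 lower at that p. Nuclear genes of oxidative phosphorylation had 1 higher and 2 lower of 47 (6.38% called, against 12.8% of all tested genes).

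**Figure D5:**
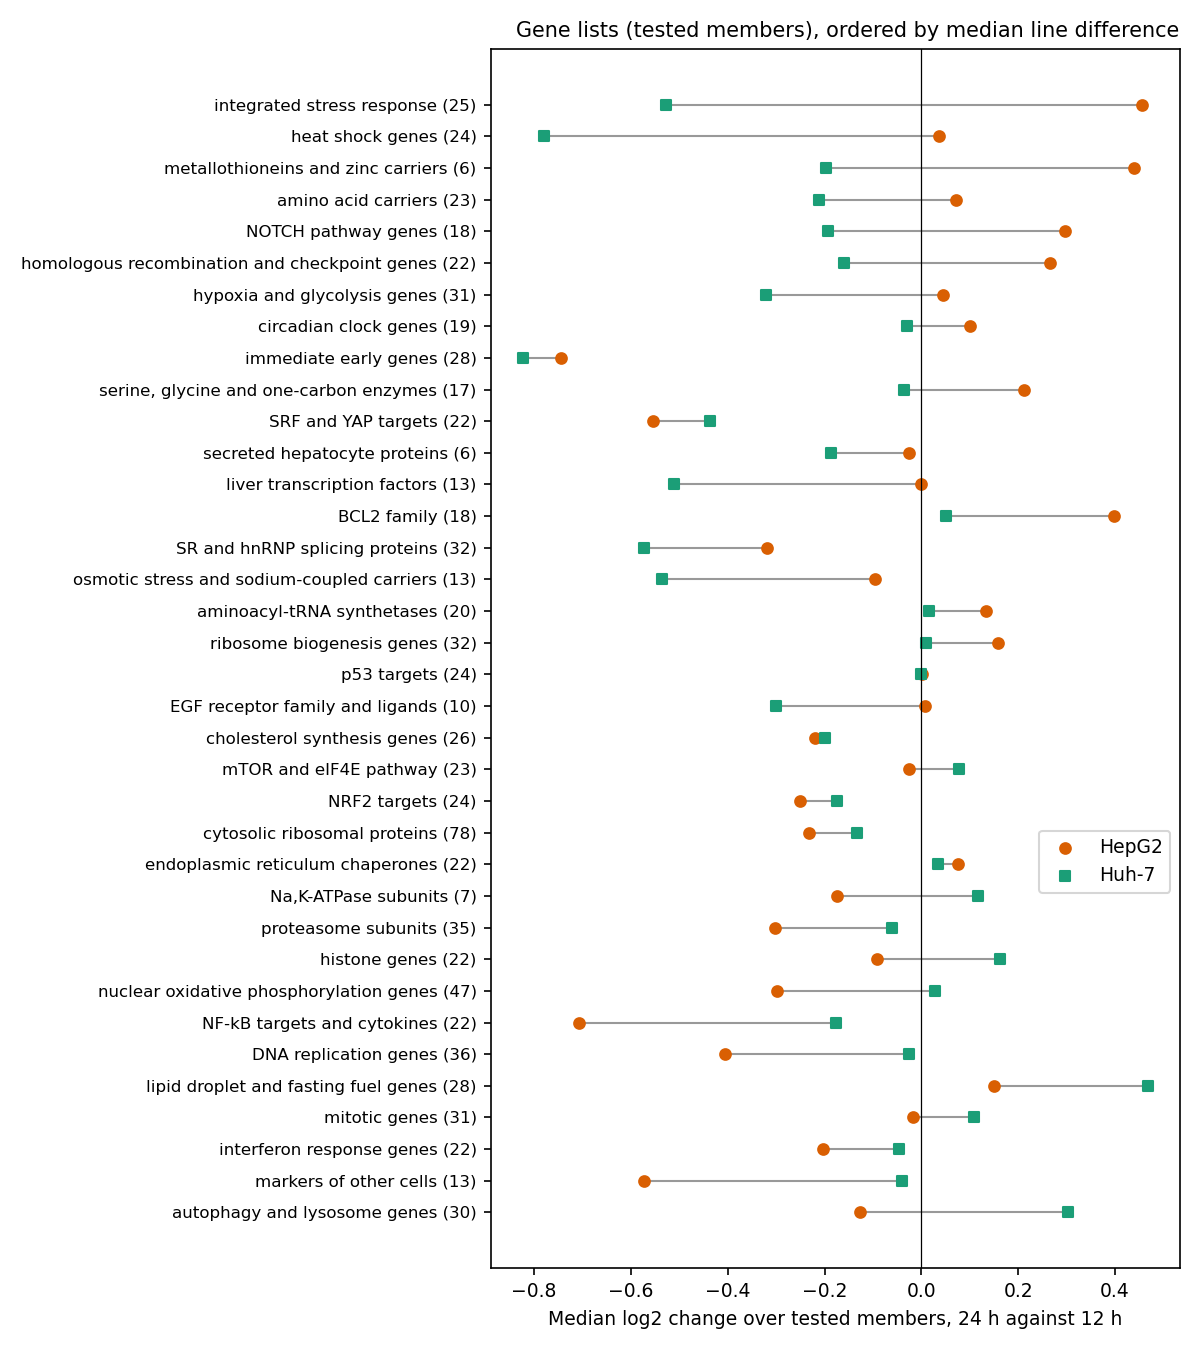
Median log2 change from 12 h to 24 h (horizontal axis) over the tested members of each gene list (number in brackets) in HepG2 (circles) and Huh-7 (squares), ordered by the median line difference. The integrated stress response and heat shock lists lie at the top, with Huh-7 to the left of HepG2.

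The remaining extremes came from genes outside the lists. Higher line differences among genes at 10 CPM or more in each line included SLC9A3, a sodium-proton exchanger (3.41, SE 0.15), JDP2, an AP-1 repressor (3.13), ADAMTS1, a secreted protease (2.72), BAHCC1 (2.69), ZIC2, a zinc finger factor (2.65), and TRAK2, an adaptor for mitochondrial transport (2.31). Of these, JDP2, ADAMTS1, ZIC2 and TRAK2 rose in HepG2 and fell in Huh-7, BAHCC1 rose in HepG2, and SLC9A3 fell in Huh-7. Lower line differences included DLX2, a homeobox factor (−2.84), C3orf52 (−2.60), ZFYVE1 (−2.47), SEMA3C, a secreted guidance cue (−2.35), HELZ2 (−2.29) and RTL10 (−2.26). ZFYVE1, SEMA3C, HELZ2 and RTL10 fell in HepG2 and rose in Huh-7, and DLX2 and C3orf52 fell in HepG2 with no call in Huh-7.

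Genes close to 0 in 1 line gave large but uncertain values. RUNX3, a transcription factor, was at 431, 429 and 398 CPM in Huh-7 at 12 h and 211, 223 and 224 CPM at 24 h, and HepG2 held no more than 3 counts in any library. PTPRD, a receptor phosphatase, fell from 102, 105 and 104 CPM to 33.7, 34.7 and 32.8 CPM in Huh-7, with at most 2 counts in HepG2. COL15A1, a basement membrane collagen, fell from 89.6, 90.1 and 87.8 CPM to 38.3, 43.9 and 44.4 CPM in HepG2, with at most 2 counts in Huh-7. TENM3 stood at 23.6, 22.4 and 19.9 CPM and then 25.4, 25.4 and 24.3 CPM in HepG2, with at most 3 counts in Huh-7. Their fitted line differences depend on the prior count and are not given as fold changes, and some calls hung on 1 library. The call of RUNX3 was lost without HepG2 at 24 h replicate 2 (value 3.17). That of PTPRD was lost without HepG2 at 24 h replicate 3 (1.61), and also without Huh-7 at 12 h replicate 3, Huh-7 at 24 h replicate 1 or any HepG2 library at 12 h (4.18 to 4.19). That of TENM3 was lost without Huh-7 at 24 h replicate 1 (−2.94) or 2 (−3.47), or any Huh-7 library at 12 h (−3.62).

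Levels in the untreated cells, on a scale set over all 16 libraries, are given for 5 of the genes above. Means of 3 libraries are given with their SD. CHAC1 averaged 2.73 ± 0.357 CPM in untreated Huh-7 (3 libraries), 138 ± 6.48 at 12 h and 9.82 ± 0.485 at 24 h, and in HepG2 51.5 CPM (1 library), 11.2 ± 0.473 and 36.1 ± 2.37. DDIT4 averaged 316 ± 8.89, 223 ± 8.05 and 54.1 ± 2.69 CPM in Huh-7 and 626, 54 ± 0.865 and 327 ± 18.7 CPM in HepG2. DNAJB1 averaged 115 ± 4.43, 617 ± 30.3 and 92.2 ± 1.71 CPM in Huh-7 and 111, 99.4 ± 0.950 and 108 ± 4.59 CPM in HepG2. PDK4 averaged 11.8 ± 0.633, 1.92 ± 0.610 and 23.6 ± 1.67 CPM in Huh-7 and 12.2, 41.7 ± 0.709 and 18.3 ± 1.57 CPM in HepG2. TXNIP averaged 104 ± 1.41, 188 ± 2.17 and 392 ± 3.12 CPM in Huh-7 and 547, 822 ± 25.5 and 251.4 ± 7.10 CPM in HepG2. At 12 h CHAC1 and DNAJB1 lay above the untreated level in Huh-7, and CHAC1 lay below it in HepG2. DDIT4 lay below the untreated level at 12 h in both lines. PDK4 lay below it in Huh-7 and above it in HepG2, and TXNIP lay above it in both. The HepG2 comparison has a single untreated library, and neither line was tested against untreated cells here.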

How the data were processed

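Expected counts per gene had been made by the authors and deposited for each library with FPKM values and gene lengths. HISAT, Bowtie2, RSEM and build hg19 are named, without versions, in the submitters' processing notes. FPKM was used only to describe levels in the results tables and not for tests. Genes missing from a library's file were counted as 0. Of 16247 identifiers listed in the 12 treated libraries, 16217 matched a gene name.

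Expected counts were rounded, genes with low counts were removed with edgeR's default filter (3601 of 16201 genes, 0.0499% of counts), and 12600 genes were fitted with TMM scaling (factors 0.9488 to 1.0432) and edgeR's quasi-likelihood test (R 4.3.3, edgeR 4.0.16, limma 3.58.1) on the 4 treated groups, with 8 residual degrees of freedom. P-values were adjusted by Benjamini-Hochberg over all tested genes. CPM are on the TMM scale of the 12 libraries unless a scale over 16 is named. DESeq2 1.42.0, limma-voom, other scalings and filters, the fit of all 16 libraries, a replicate block and leaving out each library were alternatives.

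Named genes were the 10 highest and 10 lowest called line differences at 10 CPM or more in each line, up to 10 of the most opposed genes in each direction (10 of 11 higher and all 6 lower), up to 4 called members of each list at 10 CPM or more, 3 genes in each direction under 1 CPM in one line, and a fixed set of 16 genes. The genes, lists and tests were chosen with earlier results of these data known, and genes outside the rule are marked where named. Some genes chosen by the rule are not reported here.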

Additional observations from a re-analysis of the deposited data

Results flagged for a closer look

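The line difference tests whether the 12 to 24 h change differed between the 2 lines, and 1611 of 12600 genes passed it. Genes in which both lines were called in opposite directions, with at least 10 CPM in each line, are listed here as log2 line differences. The higher ones were CHAC1 (5.51), DDIT4 (4.65), JDP2 (3.13), NRARP (3.07), ADAMTS1 (2.72), ZIC2 (2.65), SESN2 (2.63), TRIB3 (2.62), SLC1A5 (2.39), TRAK2 (2.31) and PSPH (2.25). The lower ones were PDK4 (−4.79), TXNIP (−2.77), ZFYVE1 (−2.47), SEMA3C (−2.35), HELZ2 (−2.29) and RTL10 (−2.26). Groups of 3 libraries are too small for a test of single outlying libraries.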

How the results depend on the processing

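Restricting the fit to genes of at least 10 CPM in each line gave 696 called line differences (432 higher, 264 lower), 460 HepG2 changes, 648 Huh-7 changes and 16 opposite pairs, with fewer genes tested. Testing against the 2-fold threshold itself (glmTreat) gave 550 (321 and 229), 591, 726 and 9. Adjusted p alone gave 6821 (3192 and 3629), 8197, 8251 and 1699. Leaving out 1 library at a time gave 1572 to 1633 called line differences, 898 to 935 higher, 668 to 711 lower, 1469 to 1505 in HepG2, 1667 to 1689 in Huh-7 and 49 to 62 opposite pairs. DESeq2 gave 875 higher and 623 lower, limma-voom 974 and 722, and plain library sizes 1037 and 588. The replicate block gave 1597 calls (920 and 677), 1588 of them shared with the fit without it. Deviations of same-numbered libraries from their group means correlated at −0.185 to 0.136 over 18 pairs, 1 above 0.1. Of 12 libraries, 1 correlated best with its own number. Pairing by number was thus not detected, and whether same-numbered libraries were handled together is not given. Of 99 called named genes, 91 kept their call without any 1 library, and PTPRD, RUNX3, TENM3, AMOTL1, COL1A1, CSF1, MVD and WARS1 did not. The last 5 lay near the threshold: CSF1 was −0.86 without HepG2 at 24 h replicate 3, MVD −0.99 without Huh-7 at 24 h replicate 1, and WARS1 −0.999 without Huh-7 at 24 h replicate 3. COL1A1 was −0.99 without Huh-7 at 12 h replicate 3 and −0.92 without HepG2 at 24 h replicate 1. AMOTL1 was −0.95, −0.99, −0.98 and −0.98 without Huh-7 at 12 h replicate 1, Huh-7 at 24 h replicate 3, HepG2 at 12 h replicate 1 and HepG2 at 24 h replicate 1. glmTreat lost 26, and no named gene reversed. The medians of the p53, cholesterol, NRF2 and mTOR lists changed sign between settings, so no direction is given for them. The cause of these differences was not tested. Genes under 3 counts in a library could not be measured.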

Other observations

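Carriers, ligand and redox genes outside the sets above also differed between the lines. SLC30A1, which exports zinc, fell in Huh-7 (−1.20) with 0.81 in HepG2, a line difference of 2.01 (SE 0.11), while the zinc-binding metallothionein MT2A gave −1.06, a call lost with plain library sizes (−0.996) and with the filter at 10 CPM in each line (−0.983). SLC5A3, a sodium-coupled carrier of the osmolyte myo-inositol, fell in Huh-7 (−1.11) and gave 1.87. It was the 1 called member of 13 osmotic stress and sodium-coupled carriers (7.69%, against 12.8% of all tested genes). ERRFI1, a feedback inhibitor of the EGF receptor, fell in Huh-7 (−1.34) and gave 1.98, and the receptor's ligand AREG fell in HepG2 (−1.09) and gave −1.30. AKR1C1, an aldo-keto reductase regulated by NRF2, fell in both lines and further in Huh-7 (−3.12, against −1.49 in HepG2), with a line difference of 1.64.

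Of 26 cholesterol synthesis genes, 2 were higher and 2 lower, or 15.4% called, near the 12.8% of all tested genes. HMGCS1, an early enzyme of the mevalonate pathway, fell in Huh-7 (−1.61) and gave 1.38, and SQLE, which oxidises squalene, gave 1.10. The lower members were MVK (−1.66, named after its value was seen) and MVD (−1.07, and −0.99 with its call lost without Huh-7 at 24 h replicate 1), 2 further enzymes of that pathway. BCL2L13, a mitochondrial member of the BCL2 family, rose in Huh-7 (2.19) and gave −1.71. Of 18 tested members of that family, 2 were lower and 1 higher (16.7% called, against 12.8% of all tested genes). THBS1, a matrix glycoprotein and YAP target, fell in HepG2 (−2.02) and gave −1.08, with −0.94 in Huh-7. Of 22 tested SRF and YAP targets, 2 had a called line difference (9.09%, against 12.8% of all tested genes). Both were lower, against 5.40% of all tested genes.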
